A study of Homo sapiens with 6 samples.

Results

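Among the genomic regions open in all 3 PIK3CA genotypes of MCF-10A cells, 765 were strongest in cells carrying PIK3CA H1047R. They are 765 of the 69662 regions that held exactly 1 peak of each genotype, out of 120615 regions formed by merging the peaks of the 3 lists. Each peak carried an area, the signal summed under the peak caller's curve, so a wide low peak and a narrow tall peak can have equal areas. The log2 area was centred by subtracting the median of its own list over the 69662 shared regions, and a region was kept where H1047R exceeded both WT and E545K by at least 1. The regions were chosen by these measured areas, so area, width and summit differences between genotypes are given below as descriptions, without a test.

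Open chromatin was mapped by ATAC-seq: the Tn5 transposase inserts sequencing adapters where DNA is accessible. MCF-10A is a non-tumorigenic human mammary epithelial line. Parental cells (WT) were kept in medium with 20 ng/ml EGF, whereas the E545K and H1047R knock-in lines were kept without EGF. For the last 24 h every culture was in phenol red-free medium with 1% charcoal-stripped serum plus EGF at 0.2 ng/ml, and all media held insulin, hydrocortisone and cholera toxin. Genotype and maintenance medium therefore cannot be told apart for H1047R against WT, while both knock-in lines had the same medium. How many clones stand behind each knock-in line is not stated in the labels. The 2 samples of each genotype were pooled into 1 peak list, so there are no values per sample, no replicate check and no test across samples, and sequencing depth is unknown. Peak positions do not show the edited base, so genotypes rest on the labels.

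PIK3CA encodes the catalytic subunit p110α of class I PI3-kinase, which makes the lipid messenger that recruits AKT to the membrane. E545K lies in its helical domain and H1047R in its kinase domain, and both raise lipid kinase activity. Open regions away from gene starts are often enhancers, at which sequence-specific factors bind. AP-1 (JUN and FOS proteins) answers growth factor signalling, TEAD factors act with YAP and TAZ, NF-κB factors answer inflammatory and stress signals, and the glucocorticoid receptor is switched on by hydrocortisone, which all cultures received.

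Sequences around the H1047R summit are shown for 6 of the 765 regions, as hg38 plus strand, 5′ to 3′, with 100 bp on either side of the summit. TSPAN9, ITGB6 and CITED4 are among the regions with the largest excess in H1047R, and DUSP7 among the genes with most such regions. WNT4 and S100A8 were chosen after their values were seen, because they hold an NF-κB match. The 6 were not drawn at random, so their matches do not stand for the 765 regions. NF-κB letters were in 9.96% of those not at promoters. The NFATC2 and PTPN1 regions, which rank above ITGB6 and hold none of the marked matches, are not shown. Capitals mark matches, on either strand, to AP-1 (TGANTCA), TEAD (GGAATG) or the NF-κB consensus. The TSPAN9 sequence has none of these matches.
TSPAN9, chr12:3119841-3120041: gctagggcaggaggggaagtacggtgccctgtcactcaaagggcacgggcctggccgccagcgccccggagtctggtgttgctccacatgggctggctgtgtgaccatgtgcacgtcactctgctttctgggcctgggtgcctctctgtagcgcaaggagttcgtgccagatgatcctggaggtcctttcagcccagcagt
ITGB6, chr2:160142535-160142735: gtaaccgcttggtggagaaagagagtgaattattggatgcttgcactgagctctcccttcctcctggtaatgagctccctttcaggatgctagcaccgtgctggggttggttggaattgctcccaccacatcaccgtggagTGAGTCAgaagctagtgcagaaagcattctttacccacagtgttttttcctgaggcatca
CITED4, chr1:40881225-40881425: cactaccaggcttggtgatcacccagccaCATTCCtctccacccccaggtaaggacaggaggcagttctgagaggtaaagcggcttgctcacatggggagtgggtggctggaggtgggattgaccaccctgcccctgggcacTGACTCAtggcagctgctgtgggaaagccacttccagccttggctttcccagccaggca
DUSP7, chr3:52061147-52061347: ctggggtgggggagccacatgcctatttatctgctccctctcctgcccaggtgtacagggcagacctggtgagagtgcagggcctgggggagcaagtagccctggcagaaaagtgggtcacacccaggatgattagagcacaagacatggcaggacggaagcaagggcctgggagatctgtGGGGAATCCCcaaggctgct
WNT4, chr1:22229427-22229627: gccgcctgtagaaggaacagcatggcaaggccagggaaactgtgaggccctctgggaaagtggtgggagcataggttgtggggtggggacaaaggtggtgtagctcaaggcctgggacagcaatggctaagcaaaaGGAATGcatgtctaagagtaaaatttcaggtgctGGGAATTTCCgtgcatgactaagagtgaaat
S100A8, chr1:153385096-153385296: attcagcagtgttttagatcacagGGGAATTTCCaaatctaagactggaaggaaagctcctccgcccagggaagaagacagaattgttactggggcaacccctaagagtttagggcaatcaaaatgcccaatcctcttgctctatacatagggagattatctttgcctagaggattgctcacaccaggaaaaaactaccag

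The peaks of these regions were small in WT and E545K and of intermediate size in H1047R. The median area was 376 (WT), 326 (E545K) and 1163 (H1047R), where the medians over all shared regions were 861, 725 and 921. In 364 of the 765 regions (47.6%) both the WT and the E545K area lay under 400, against 12.5% of all shared regions; the smallest area in each list was 200. In H1047R, 725 regions (94.8%) stood in the upper 50% of that list, against 66.4% of all shared regions, and 113 (14.8%) reached an area of 2000, against 23.1%.

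The median centred difference was 1.38 log2 units for H1047R minus WT and 1.34 for H1047R minus E545K. The smaller of both differences had a median of 1.19 and was at least 1.5 in 136 regions and at least 2 in 26. As background, 4.49% of the shared regions were higher in H1047R than in WT by at least 1, 3.56% were higher than in E545K by at least 1, and 1.10% met both conditions. The opposite pattern, weakest in H1047R by at least 1 against both, held for 893 regions (1.28%), the same rule for E545K gave 734 (1.05%) and for WT 634 (0.910%). The 765 regions are thus no more numerous than those of the opposite pattern. At the edge of the rule, the smaller difference was 1.0011, 1.0013 and 1.0017 for the regions nearest POLR1D, HS3ST3B1 and CCSER2, just inside, and 0.99997, 0.9989 and 0.9984 for those nearest OR11H4, ST6GALNAC2 and APOL1, just outside.

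**Figure D1:**
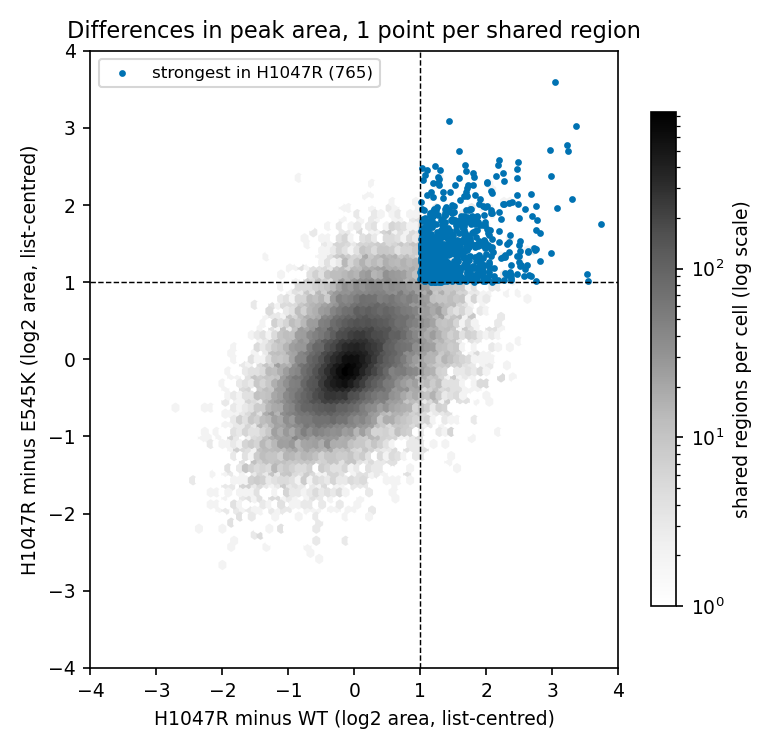
Each grey cell counts shared regions by H1047R minus WT (horizontal axis) and H1047R minus E545K (vertical axis), both in log2 units of list-centred area, and dashed lines mark the threshold of 1. The 765 regions above both lines are blue; most sit close to the thresholds, with 26 at 2 or more on both axes.

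Greater width and greater height both entered the larger area. The median peak was 388 bp wide in WT, 401 bp in E545K and 711 bp in H1047R. The H1047R peak was wider than the WT peak in 754 regions (98.6%) and wider than the E545K peak in 749 (97.9%), against 56.9% and 59.2% of all shared regions. The mean height, area divided by width, was larger than in WT in 679 regions (88.8%) and larger than in E545K in 722 (94.4%), here without centring. The median log2 height difference was 0.820 to WT and 1.02 to E545K, against 0.00442 and 0.228 over all shared regions. A height above that of E545K was thus common among all shared regions, where the lower quartile of that difference was −0.000495. The median summit −log10 p was 3.28 in WT, 3.03 in E545K and 4.97 in H1047R. Choosing regions by mean height in place of area gave 216, of which 141 were among the 765. Choosing them by the summit −log10 p gave 6. That rule took log2 of the −log10 p, itself a logarithm, and again asked for a difference of 1, a stricter demand. The H1047R summit −log10 p was above that of WT in 763 regions (99.7%), against 46.7% of all shared regions. It was above that of E545K in all 765, against 78.4%. The number of regions thus rests on the measure and its threshold. In most regions the summits lay close together, though less often than elsewhere. The H1047R summit lay within 100 bp of the WT summit in 91.1% and of the E545K summit in 90.1%, against 95.6% and 95.4% of all shared regions. The median distance was 11 bp to WT and 12 bp to E545K, against 6 and 7 bp. At the TSPAN9 region shown above it was 542 bp to WT and 606 bp to E545K.

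WT and E545K were close to each other in most of these regions, although the rule did not ask for it. Their centred areas differed by less than 0.5 in 561 regions (73.3%), against 71.0% of all shared regions, and E545K lay above WT in 415 (54.2%), against 51.6%. The 2 lists that the H1047R list was set against were thus about as far apart here as elsewhere.

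The largest excess was in an intron of TSPAN9, a tetraspanin membrane protein, at chr12:3119454-3120888. WT had an area of 441, E545K one of 254 and H1047R one of 3892, a difference of 3.04 to WT and 3.60 to E545K. Next was an intron of NFATC2, a calcineurin-activated transcription factor (chr20:51446677-51447874), with areas of 276, 296 and 3044 in the same order. In both regions WT and E545K were near the floor of the lists and H1047R was among larger peaks.

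At SERPINA3, the acute-phase protease inhibitor α1-antichymotrypsin, the region chr14:94612195-94614969 had areas of 231, 265 and 2306, and its summit lay 9 bp upstream of the gene's start. Upstream of PTPN1, the phosphatase PTP1B that acts on the insulin receptor, areas were 220, 221 and 1843, with the summit 7081 bp from the start. In ITGB6, the β6 integrin subunit of epithelia, an intronic region (chr2:160141987-160144938) had areas of 400, 492 and 4048. It was the only 1 of the 20 shared regions assigned to ITGB6 that was strongest in H1047R. At the same gene, 4 regions were strongest in E545K and 2 were weakest in H1047R. The SERPINA3, PTPN1 and ITGB6 regions differ in shape, since the H1047R peak was 725 bp wide at PTPN1 but 2775 bp at SERPINA3 and 2952 bp at ITGB6.

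The other 7 of the 12 leading regions had their nearest start at CITED4, a p300-binding co-activator, SMCO4, PLK4, the kinase of centriole duplication, GREM1, a secreted BMP antagonist, PLXNA2, a semaphorin receptor, NPIPB11 and EPHX3, an epoxide hydrolase. Areas ran from 394 and 314 (WT, E545K) to 2342 in H1047R at CITED4 and from 253 and 231 to 1503 at GREM1. The GREM1 region lay in an intron of SCG5, so the nearest start is a label and not a target. The NPIPB11 start was 134945 bp away and belongs to a family of near-identical copies, whose reads may not be told apart. Across all 12 regions WT and E545K areas lay between 211 and 615, and H1047R areas between 1503 and 4048. The 12 were picked for the largest excess of H1047R area, so this gap goes with the choice and is a description.

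**Figure D2:**
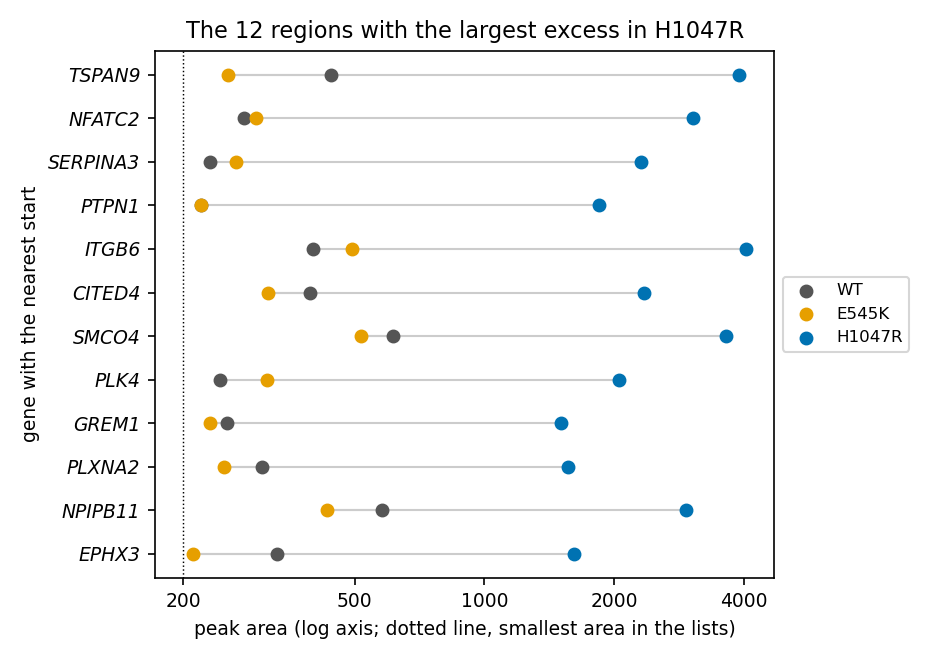
Peak area on a log axis for the 12 regions with the largest smaller difference, 1 row per region named by its nearest start, with 1 point per genotype's pooled list. H1047R points (1503 to 4048) lie to the right of the others in every row because the regions were picked for this excess. The WT and E545K points crowd between 211 and 615, near the smallest listed area of 200.

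A protein-coding start was within 100 kb of 558 of the 765 regions, which is 1.08% of the 51807 shared regions with such a start. They fell to 519 genes, 3.38% of the 15352 genes with a shared region, and 36 genes had more than 1. TSPAN9 had 4 of its 14 shared regions among them, all intronic. Beside the leading region, the areas in WT, E545K and H1047R were 558, 634 and 2465 at 40421 bp from the start, 615, 630 and 2201 at 46129 bp, and 242, 268 and 695 at 60027 bp. The promoter region of TSPAN9 had areas of 3541, 3201 and 4825, a centred excess of 0.35 over WT and 0.25 over E545K. The excess at TSPAN9 was thus not spread evenly over the locus, and the region at 82899 bp was lower in H1047R (415, 327 and 214).

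**Figure D3:**
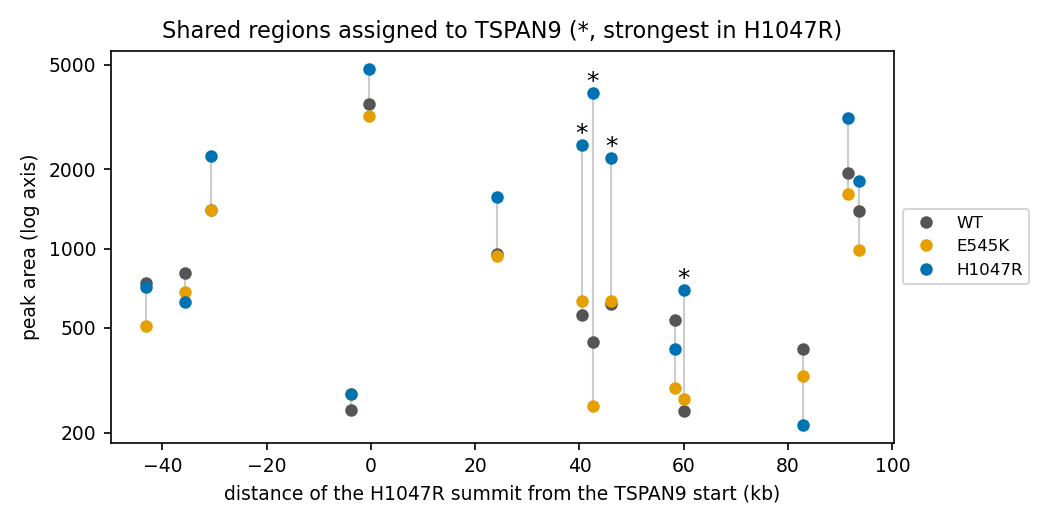
Peak area on a log axis of the 14 shared regions assigned to TSPAN9, against the distance of the H1047R summit from the gene's start in kb, with 1 point per genotype's list and an asterisk over the 4 regions strongest in H1047R. The 4 marked regions lie between 40421 and 60027 bp downstream of the start, while the start itself has large peaks in all lists.

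DUSP7, a phosphatase of ERK, had 3 of its 9 shared regions in the group. The region 4676 bp upstream of its start had areas of 591, 772 and 2692 in the 3 lists, and its sequence holds an NF-κB match (above). The other regions had areas of 603, 422 and 1467, and of 680, 441 and 1481. A larger region 10191 bp past the start, with areas of 16640, 14925 and 18177, differed by 0.03 from WT and by −0.06 from E545K after centring. At the other 10 genes with most regions, each had 2: PLXNA2, CITED4, IKBKE, GREM1, EPHX3, EGR3, DERL1, KLF10, BTBD16 and SMNDC1.

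Several of these genes act in signalling. At IKBKE, a kinase upstream of NF-κB and interferon signalling, an intronic region 2213 bp past the start had areas of 246, 271 and 1070, and a region in SRGAP2 had 407, 314 and 1615. At EGR3, an immediate early transcription factor, both regions lay in introns of PEBP4, with areas of 323, 310 and 1472 and of 325, 286 and 871. At KLF10, a TGF-β-inducible factor, a 4067 bp wide peak had areas of 335, 1108 and 4751. KLF10 is thus a case in which E545K stood between WT and H1047R, and its other region did not follow that order (536, 442 and 1430).

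Few of the regions were at gene starts. Only 12 of the 765 (1.57%, Wilson 95% interval 0.900 to 2.72, for counting error only) had their midpoint within 1 kb of a protein-coding start, against 13.9% of all shared regions. By the summit in place of the midpoint, the count was 13. The same share was 3.70% among regions weakest in H1047R, 3.41% among those strongest in E545K and 1.42% among those strongest in WT, so a low promoter share was common to the 4 groups. The small WT and E545K areas given above go with this share, and their part in it was not tested. Introns held 370 regions (48.4%, 44.8 to 51.9), against 39.4% of all shared regions, and 351 (45.9%) were intergenic, against 41.9%. The median distance to the nearest start was 47675 bp, against 33602 bp.

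Sequence composition followed the same division. CpG-rich summits (observed over expected CpG of at least 0.6 and GC over 50%) made up 2.75% of the regions and 16.4% of all shared regions. The median GC of the summit sequence was nevertheless 50.2%, equal to that of all shared regions, and above the 45.8% of regions weakest in H1047R, 47.8% of those strongest in E545K and 45.3% of those strongest in WT. By chromosome, the share of shared regions was highest on chromosome 7 (59 of 3463, 1.70%, 1.32 to 2.19) and lowest on chromosome 13 (10 of 1729, 0.578%, 0.314 to 1.06). Copy number was not measured, and centring within 10 Mb windows gave 751 regions, 644 of them among the 765.

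The 8 promoter regions with the largest excess belonged to genes of different kinds. LCE1C, a protein of the cornified envelope, had areas of 251, 211 and 1058, CHCHD10, a mitochondrial protein, 403, 206 and 1246, and BDKRB1, the bradykinin B1 receptor, 426, 357 and 1240. CACNA1D, an L-type calcium channel subunit, had 557, 312 and 1561, and SPTSSB, a subunit of serine palmitoyltransferase, 387, 394 and 1296. CDIP1, MEGF6 and ADM2 had differences to WT of 1.34, 1.18 and 1.17. None of these promoter peaks had an H1047R area above the 2146 of CDIP1. The SERPINA3 region is not among them, because its midpoint classed it as an exon region. Its summit lay 9 bp from the start, and its H1047R area was 2306. Its smaller difference of 2.77 was above the 1.98 of LCE1C.

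Peaks found in 1 list only were looked for near the regions. A merged region with a peak of H1047R alone was within 25 kb of 357 of them (46.7%, 43.2 to 50.2), against 29.8% of all shared regions. E545K-only regions were near 9.02% (14.2% of all) and WT-only regions near 92 of the 765 (18.1% of all). The other groups were alike in this: E545K-only regions were near 35.7% of the regions strongest in E545K, and WT-only regions near 32.6% of those strongest in WT. Both measures come from the same list, so this is a description. The regions seldom lay close to each other: 90 (11.8%) had another of the 765 within 50 kb, against 20.9% for regions weakest in H1047R, 110 of 734 for those strongest in E545K and 10.4% for those strongest in WT.

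Letters under the summit were not used by the rule. Of 33 consensus motifs sought within 100 bp of the H1047R summit on both strands, with promoters left out (753 of the 765 and 59946 shared regions), 3 had an interval wholly above that of all shared regions and 2 wholly below; 28 overlapped. The AP-1 consensus was in 355 regions (47.1%, 43.6 to 50.7), against 40.9% of all shared regions. The NF-κB consensus was in 75 (9.96%, 8.02 to 12.3), against 3.03% (2.90 to 3.17). A shorter RelA element, matched separately, was in 15 (1.99%, 1.21 to 3.26), against 0.489%. These 15 are not all among the 75, since the COL1A1 region held the RelA element without the NF-κB consensus. The TEAD consensus was in 97 (12.9%, 10.7 to 15.5), against 18.9%, and the CTCF consensus in 2 (0.266%, 0.0729 to 0.963), against 1.14%. The AP-1 letters overlap those of the NRF2 element, and the 753 regions are themselves part of the 59946. Intervals cover counting error only, and the 33 motifs were read side by side without adjustment.

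Regions with the opposite or a shifted pattern held other letters. Those strongest in E545K or in WT were read at the summit of that list. Those weakest in H1047R were read at the WT summit, although E545K lay above WT in 452 of the 893. AP-1 was in 22.6% (19.9 to 25.5) of regions weakest in H1047R, 20.5% (17.6 to 23.6) of those strongest in E545K and 29.8% (26.3 to 33.5) of those strongest in WT. For NF-κB the shares were 2.67% (1.79 to 3.98), 1.69% (0.971 to 2.93) and 2.72% (1.71 to 4.31), with intervals that overlap that of all shared regions. For TEAD they were 29.4%, 27.5% and 28.3%, each above it. The glucocorticoid receptor element was in 4 of the H1047R-strongest regions (0.531%, 0.207 to 1.36), against 0.834% of all shared regions, 3.72% (2.65 to 5.21) of those weakest in H1047R, 1.97% of those strongest in E545K and 2.88% of those strongest in WT. RUNX (7.97%) and STAT (5.71%) letters were within counting error of all shared regions (6.96% and 5.99%).

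**Figure D4:**
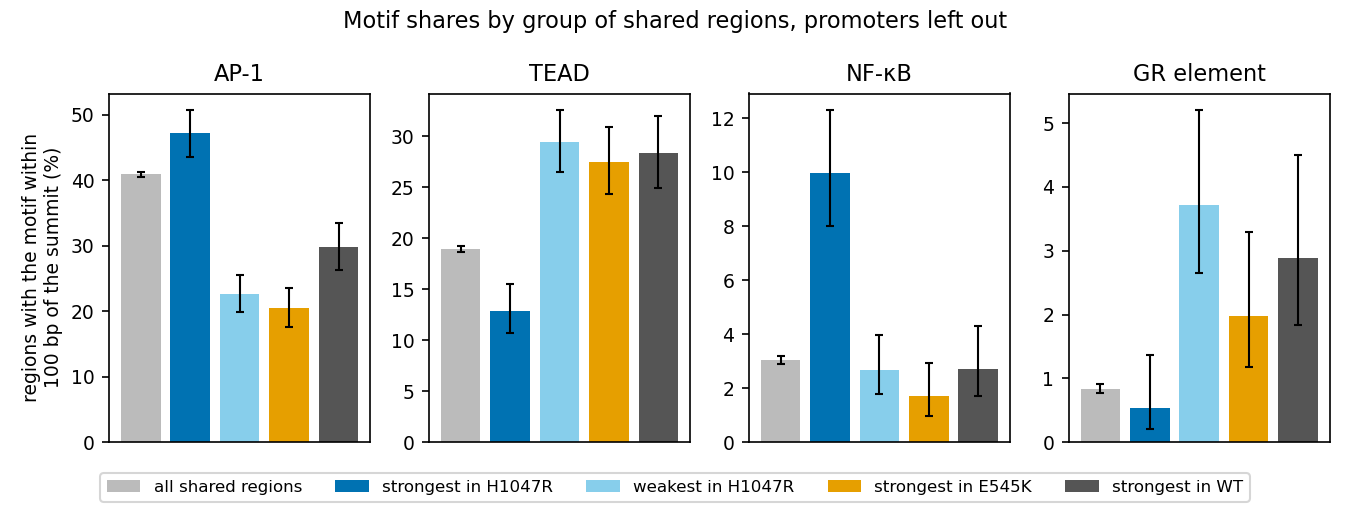
Share of regions, promoters left out, with each motif within 100 bp of the summit, in percent; bars are the 4 groups and all shared regions, and error bars are Wilson 95% intervals for counting error. All shared regions and those strongest in H1047R were read at the H1047R summit. Regions weakest in H1047R were read at the WT summit, and the other groups at the summit of their own list. The regions strongest in H1047R have 47.1% AP-1 and 9.96% NF-κB, the highest bars in those panels, and the lowest bars for TEAD (12.9%) and the glucocorticoid receptor (GR) element (0.531%).

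Along the smaller of both differences the motif shares ran differently. NF-κB was in 2.07% of regions under −1, 1.84% from −1 to −0.5, 2.78% from −0.5 to 0, 3.60% from 0 to 0.5, 6.83% from 0.5 to 1, 10.5% from 1 to 1.5 and 7.46% at 1.5 or more, where 134 regions remained. AP-1 was highest below the threshold, at 56.8% from 0.5 to 1, then 48.6% and 40.3% above it, so the AP-1 letters did not increase with the excess inside the group. TEAD was in 28.3% under −1 and in 12.6% and 14.2% of the bins above 1. Regions meeting only 1 condition were between: NF-κB was in 4.88% (4.07 to 5.84) of those that exceeded only WT, in 6.67% (5.57 to 7.96) of those that exceeded only E545K, and in 2.75% of those that exceeded neither.

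**Figure D5:**
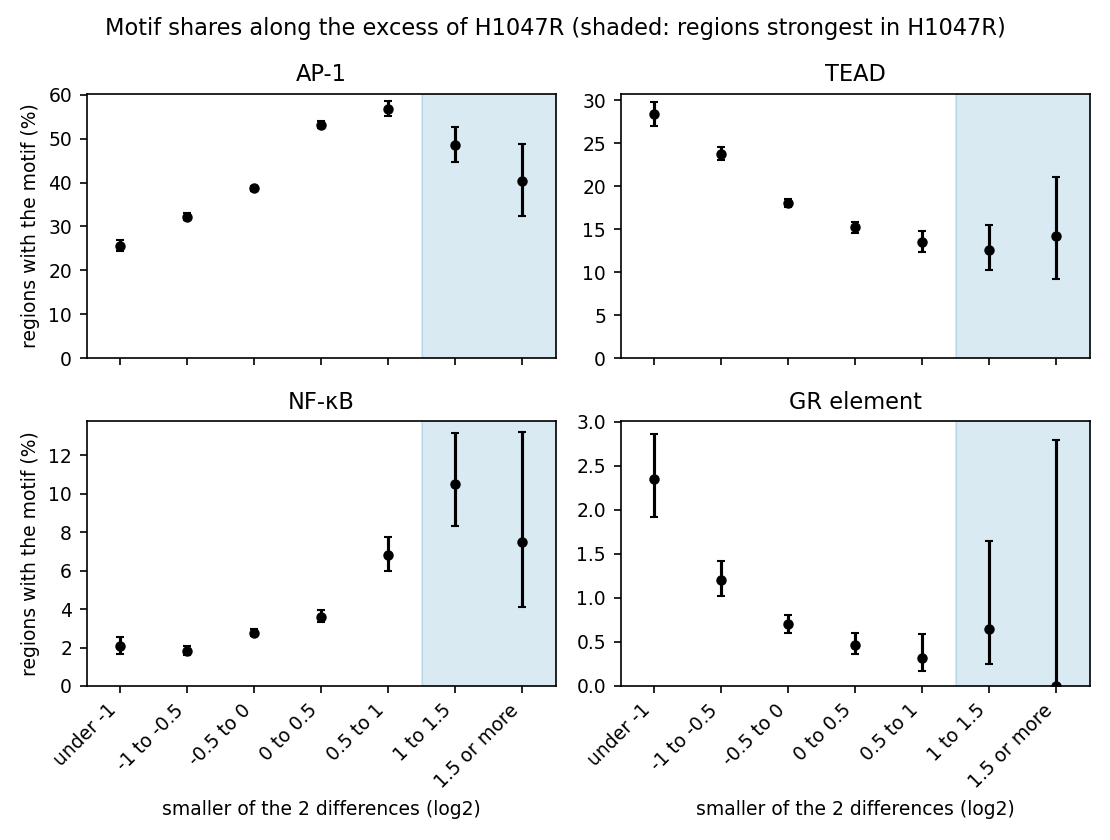
Share of shared regions not at promoters with each motif, in percent, in 7 bins of the smaller difference (log2, list-centred); points are shares, bars are Wilson 95% intervals for counting error, and the shaded bins hold the regions strongest in H1047R. NF-κB goes from 2.07% in the lowest bin to 10.5% and 7.46% in the shaded ones, and AP-1 peaks at 56.8% just below them.

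Peak size moves with motif content, so the shares were also read within quartiles of the H1047R area. NF-κB was in 7.46%, 10.4% and 13.1% of the H1047R-strongest regions in quartiles 2, 3 and 4, against 2.74%, 3.26% and 4.70% of all shared regions there. Quartile 1 held only 1 of the regions, without a match, and gives no comparison. AP-1 was higher than in all shared regions in quartile 2 (54.8%, 48.3 to 61.2, against 44.2%) but not in quartile 3 (45.2% against 46.9%) or 4 (39.2% against 41.4%). The AP-1 excess over all shared regions was thus not seen among the larger peaks.

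The NF-κB letters sat near the summit. In the regions strongest in H1047R there were 0.564 NF-κB matches per kb within 100 bp of the summit and 0.133 per kb at 300 to 500 bp, against 0.164 and 0.118 in all shared regions, so the excess was at the centre and not in the flanks. For AP-1 the densities were 2.72 and 0.349 per kb, against 2.42 and 0.343. For TEAD the centre (0.730 per kb) was little above the flank (0.624), while all shared regions had 1.14 and 0.658.

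The 75 regions with an NF-κB match lay on 20 of the 22 autosomes, 31 in introns, 41 between genes, 3 in exons and none at a promoter. Their median areas were 392 in WT, 387 in E545K and 1310 in H1047R, close to those of the other 690 (373, 321 and 1148). AP-1 letters were in 27 of the 75 (36.0%, 26.1 to 47.3), against 47.8% of the 690. Among the sequences shown, WNT4, a WNT ligand, had areas of 216, 392 and 1938 in a region 86430 bp upstream of its start. S100A8, a calgranulin induced in inflamed epithelia, had 580, 489 and 1466 in a region 5877 bp past its start.

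Gene lists were read against 2 backgrounds, the 3.38% of genes with such a region and the 1.08% of assigned shared regions. In 4 lists no region was in the group: the PI3K-AKT-mTOR pathway (0 of 137 regions near 31 genes, which allows a share of up to 2.19%), glucocorticoid response genes (0 of 150, up to 2%), the interferon response (0 of 82, up to 3.66%) and G1 cell cycle genes (0 of 92, up to 3.26%). The background of 1.08% lies below each of these limits, so a lower share than the background was not detectable. PIK3CA, in the first list, accordingly had none, and its promoter areas were 7476, 6416 and 7244.

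The list of ERBB receptors, ligands and feedback genes had 3 of 129 regions (2.33%, 0.794 to 6.61), an interval that holds the background, and as many strongest in WT. The 3 were near EGF, HBEGF and BTC, which encode ligands of the EGF receptor. The areas were 346, 332 and 925 in an EGF intron, 339, 539 and 1494 at a site 2875 bp upstream of HBEGF, and 328, 282 and 737 near BTC. In the early response list, EGR3, KLF10 and MAFK, a small MAF protein, had 5 of 237 regions (2.11%, 0.904 to 4.84), with the background inside the interval, and 6 of 237 (2.53%, at 5 genes) were weakest in H1047R. In the NF-κB and inflammation list, SOD2, the mitochondrial superoxide dismutase, and NFKBIZ, an atypical IκB protein, had 3 of 194 (1.55%, 0.527 to 4.45), near the background.

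Integrin and focal adhesion genes had 6 of 245 regions (2.45%, 1.13 to 5.24) at 5 of 32 genes: ACTN1 with 2, ITGB6, ITGB8, PARVA and TNS3. Basal and squamous genes had 5 of 170 (2.94%, 1.26 to 6.70), among them S100A8, GRHL3, TFAP2A and GRHL1, and 7 of 170 (4.12%, at 6 genes) strongest in E545K. GRHL3, a grainyhead-like transcription factor of epithelial differentiation, had areas of 405, 406 and 1194 in an intron. For the integrin list the regions weakest in H1047R were more numerous (11 at 7 genes) than those strongest in it. Neither list thus had regions of the H1047R-strongest pattern alone. Hypoxia and glycolysis genes had 4 of 158 (2.53%, 0.989 to 6.33) at PKM, CA12, VEGFA and NDRG1, an interval that holds the background.

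The remaining lists had 1 to 4 regions each. TGF-β genes had 4 of 197 (GREM1 with 2, ACVR1 and SMAD3), WNT genes 3 of 174 (WNT4, TCF7L2 and SFRP1), and cell junction genes 3 of 189 (DSG2, CDH1 and CDH3). The CDH1 region, in an intron of CDH3, had areas of 1591, 1362 and 3595. YAP and TEAD target genes had 2 of 171 regions, both in introns of WWTR1, which encodes the co-activator TAZ. Epithelial transcription factor genes had 3 of 240 (TBX2, TFAP2A and HEY1), EMT genes 2 of 150 (COL1A1 and SNAI1), FOXO targets 2 of 168 (both at SOD2), p53 targets 1 of 144 (MDM2), sterol and fatty acid genes 1 of 128 (ELOVL5) and luminal genes 1 of 94 (PRLR). The intervals of these shares all held the background of 1.08%. Lists of other cell types had 2 of 47 immune regions (4.26%, 1.17 to 14.2, at CD14 and CD2) and 1 of 67 endothelial, neural and muscle regions (VWF), and housekeeping genes had 2 of 63.

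Promoter peaks at marker genes were read in each list to check the label. Of 7 epithelial and basal markers, KRT5, KRT14, KRT17, CDH1, ITGA6 and EGFR had one in every list, with KRT14 small (377, 320 and 231). TP63 had none at its canonical start, which is not the start of the isoform of basal cells. Of 4 luminal markers, ESR1, GATA3 and FOXA1 had one in every list and PGR in none. Of 9 markers of immune, endothelial, neural, muscle and liver cells, 7 had none, CDH5 had one in WT (204) and SNAP25 in WT and H1047R (229 and 255), near the smallest listed area.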

How the data were processed

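ATAC-seq of 6 MCF-10A samples, 2 per PIK3CA genotype, was deposited as 1 peak list per genotype. Per the submitters' processing notes, the authors used Trim Galore 0.4.0, cutadapt, FastQC, SAMtools, Genrich 0.6.1 and hg38; no aligner is named there. The deposited signal is the area of each peak and the deposited −log10 p is that of its summit, as Genrich writes them; a column without values was left aside. Both are the authors' own values per peak of pooled samples and serve to describe and rank peaks. Depth is unknown, and areas are no counts.

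Touching or overlapping peaks were merged, regions with exactly 1 peak of each were kept, and log2 areas were centred on each list's median over them. Regions were classed by midpoint with GENCODE 44 (promoter, within 1 kb of the canonical start of a protein-coding gene) and assigned by H1047R summit to the nearest such start within 100 kb. The 33 motifs were matched as consensus letters on both strands within 100 bp of the summit. Sequences came from the hg38 genome given. Shares carry Wilson 95% intervals, and limits for a count of 0 use 3 counts. No test across samples was possible. Named are the 12 regions with the largest smaller difference, the 12 genes with most regions, 8 promoter regions, up to 4 genes per list (23 lists), 3 regions on either side of the threshold and PIK3CA. The members, lists and motifs were chosen with earlier results of these data known. Computations used Python 3.11.15 (scipy 1.17.1, pandas 2.3.3, numpy 2.4.6), with matplotlib 3.10.9 for figures. Tested on simulated data, 200 of 200 raised regions were recovered with 0 false calls among 20000 regions. The simulated excess was larger than that of most regions named here, the noise was small and no smallest area was set. That run therefore checks the code and cannot show how many false calls the measured lists hold. Merging was checked against bedtools 2.31.1, with 0 differences. Some items that the naming rule takes are left out of the text. Alternatives changed the measure, threshold, centring, overlap, windows and distances.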

Additional observations from a re-analysis of the deposited data

How the results depend on the processing

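The number of regions, 765, depended on the measure and the rule: it was 6 by summit −log10 p, 216 by area divided by width, 136 at a difference of 1.5, 1579 without centring, 253 with all areas of at least 400 and 456 with an overlap of at least 50%. Genes with 2 or more regions, 36, then numbered 0, 3, 4, 120, 6 and 9 in the same order, and 16 within 50 kb. The promoter share, 1.57%, was 0% by summit −log10 p (0 of 6) and 3.01% within 2 kb. Among all 765 regions the AP-1 share, 46.7%, was 16.7% by summit −log10 p (1 of 6), 38.9% by area divided by width, 39.7% at 1.5, 34.6% within 50 bp and 61.3% over the whole peak. For AP-1, all shared regions had 35.8% within 100 bp, 27.8% within 50 bp and 47.7% over the whole peak. The AP-1 intervals by area divided by width (32.6 to 45.5) and at 1.5 (31.9 to 48.1) held 35.8%. An AP-1 excess over all shared regions was thus not seen at those settings. The NF-κB share, 9.80%, was 0% by summit −log10 p, 7.35% at 1.5, 4.97% within 50 bp and 20.1% over the whole peak. For NF-κB, all shared regions had 3.18% within 100 bp, 1.54% within 50 bp and 12.1% over the whole peak. The TEAD share, 12.8%, was 33.3% by summit −log10 p (2 of 6), 10.2% by area divided by width, 6.93% within 50 bp and 41.3% over the whole peak. For TEAD, all shared regions had 17.2% within 100 bp, 9.86% within 50 bp and 38.9% over the whole peak. The lower TEAD share was thus seen near the summit. Over the whole peak the comparison cannot decide, because the sequences differ in length. The median H1047R peak was 711 bp wide in the 765 regions and 571 bp in all shared regions. Median GC, 50.2%, was 59.5% by summit −log10 p, 56.0% by area divided by width, 52.2% with areas of at least 400 and 48.2% over the whole peak. The cause of these moves was not tested, other than that longer or shorter sequence holds more or fewer matches. The NF-κB and TEAD alternatives were chosen after seeing the data. No paired analysis was possible because each genotype had 1 pooled list, and for the same reason no sample could be left out.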
